A study of Homo sapiens with 30 samples.

Results

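The comparison set 4 A549 libraries exposed to secondary organic aerosol (SOA) of naphthalene condensed on soot (SOANAP-SP, called NAP) against 4 exposed to SOA of β-pinene on the same soot (SOAβPIN-SP, called PIN). These 8 were taken, by the exposure in their labels, from 15 A549 libraries and 30 libraries in the series. Genes counted 30 times or more in 3 or more of the 15 A549 libraries were tested, 11775 of 18460 genes in all. A549 is a single human lung adenocarcinoma line with features of alveolar type II cells. It was grown at the air-liquid interface on the upper side of an insert and met the aerosol directly. EA.hy926, a hybrid line made from umbilical vein endothelial cells and A549, covered the lower side. All exposures lasted 4 h, and PIN and NAP shared the soot. The other A549 libraries came from soot alone (SP, 3 libraries) and from clean air (CA, 4 libraries).

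Naphthalene is an aromatic compound of combustion and fuel, and β-pinene is a monoterpene released by conifers. Oxidised aerosol carries peroxides, carbonyls and, from aromatic precursors, quinones. Several pathways read such chemistry in an epithelial cell. MAP kinase cascades switch on immediate early genes, electrophiles release NRF2 (NFE2L2) from KEAP1, damaged protein frees the heat shock factor HSF1, and aromatic ligands move the aryl hydrocarbon receptor AHR to genes such as CYP1A1. The comparison asked where an anthropogenic and a biogenic SOA on a common core left different messages.

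With NAP, A549 cells held more message of immediate early transcription factors (ATF3, FOSB, EGR1, FOS, JUN), of the neutrophil chemokines CXCL8, CXCL2 and CXCL3, and of inducible heat shock chaperones than with PIN. Messages for initiation of DNA replication (CDC6, MCM10, GINS1), for p53 targets (SESN1, TP53INP1, MDM2) and for the NRF2 targets OSGIN1, GCLC and HMOX1 were lower. NRF2 targets did not move as a group, and MAFF among them was higher. By edgeR's quasi-likelihood test with Benjamini-Hochberg adjustment, 881 genes differed when both an adjusted p up to 0.05 and a log2 fold change (log2FC, NAP minus PIN) sized 0.5 or more were asked for, which was 7.48% of those tested. Of these, 406 (3.45%) were higher with NAP and 475 (4.03%) lower. The rises were the larger ones, with 92 of 406 reaching a log2FC of 1 and a median of 0.73, against 45 of 475 and a median size of 0.65 among the falls. In 350 of the 406 and 420 of the 475, the 4 NAP libraries lay wholly above or wholly below the 4 PIN libraries. Over all tested genes the shares that separated in this way were 9.3% above and 11.3% below. The first principal component of the 8 libraries took 46% of the variance and held PIN at -22.5 to -11.7 and NAP at 11.2 to 27.6, with NAP replicate 3 farthest out.

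**Figure D1:**
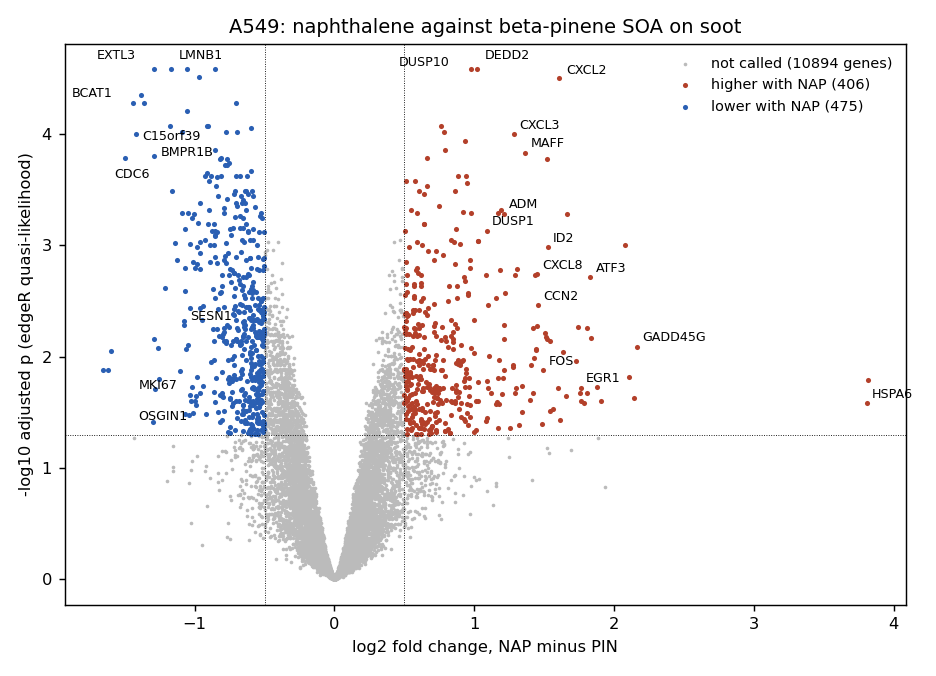
Log2FC (NAP minus PIN, x axis) against -log10 adjusted p (edgeR quasi-likelihood, y axis) for 11775 genes in A549; dotted lines mark the thresholds of 0.5 in size and 0.05. The 406 genes higher with NAP reach a log2FC of 3.81, and the 475 lower genes lie within 1.66 in size.

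Some features of the libraries moved with the groups. The aerosols came from separate experiments, so aerosol and experiment cannot be told apart, and according to the study the deposited dose of the aerosols also differed, which cannot be told apart from their composition. Libraries held 7317041 to 15012539 counts with PIN and 10449042 to 14035383 with NAP. Transcripts of the mitochondrial genome took 13.1 to 17.4% of counts with NAP and 9.87 to 13.1% with PIN. Scaling by library totals alone, in place of TMM (the trimmed mean of M-values), moved the median of all genes from 0.01 to -0.12 and the split of calls from 406 higher and 475 lower to 231 higher and 1051 lower. Falls counted here are therefore relative to the bulk of messages. In bulk RNA, fewer cells carrying a message and less message per cell cannot be told apart.

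The size of a change also went with the length of the transcript. In 5 bins of equal size by length (GENCODE annotation of GRCh38), the median log2FC went from 0.16 in the shortest bin, through 0.07, -0.01 and -0.07, to -0.17 in the longest. The shortest bin, up to 1763 bases, held 135 genes higher and 18 lower, and the longest, from 5762 bases, 18 higher and 192 lower. Transcripts of the higher genes had a median length of 2269 bases, those of the lower genes 5060 bases, and those of all tested genes 3287 bases. All 4 NAP libraries had a negative slope of level on length, -0.12 to -0.04 (log2 per doubling of length), while PIN libraries ranged from -0.04 to 0.10. The study kept only replicates of high RNA integrity. Integrity per library was not used here, and its part in this trend was not tested. An offset for length in each library, chosen after the data were seen, left 351 genes higher and 363 lower, of which 277 and 309 were among those called without it.

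**Figure D2:**
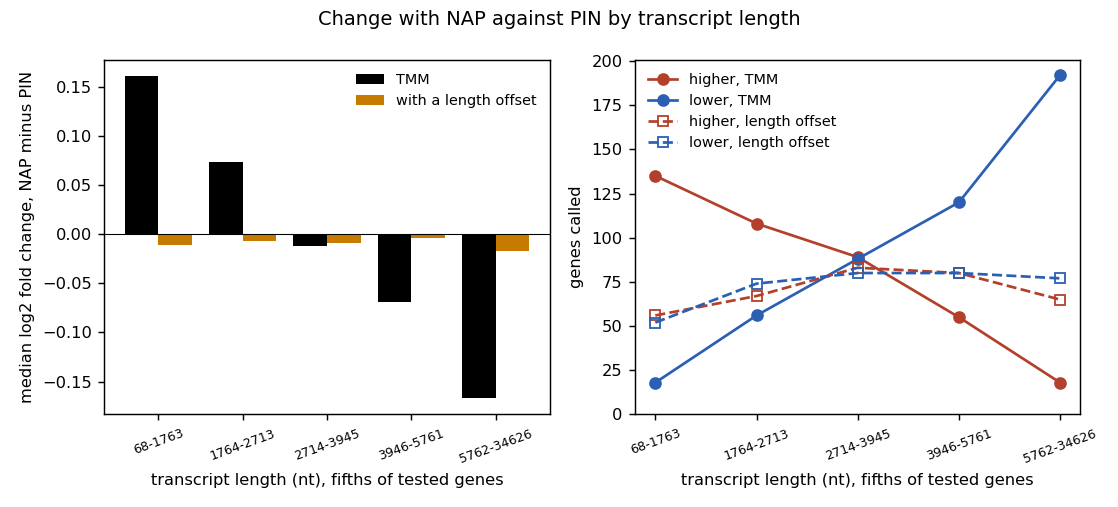
Median log2FC (NAP minus PIN, left) and number of called genes (right) in 5 bins of the tested genes by transcript length in bases, with TMM scaling and with an offset for length in each library. With TMM, medians go from 0.16 to -0.17 from short to long transcripts and higher genes from 135 to 18, while with the offset the bins lie within -0.0169 and -0.00408.

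Immediate early genes are transcribed within minutes of a signal from factors that are already in the cell, and many encode transcription factors of the AP-1, EGR, NR4A and KLF families. Of 23 tested genes on the list for them, 15 rose with NAP and the remaining 8 did not pass. Calls made up 65.2% of the list, against 7.48% of all genes. The median log2FC was 0.91 against 0.01 over all tested genes. ATF3, a stress-induced partner of JUN, had 3440, 3538, 3477 and 4620 normalised read counts in the 4 NAP libraries and 655, 1153, 1040 and 1369 in the PIN libraries. The groups were well apart, with a log2FC of 1.83 ± 0.29 (SE, n = 4 and 4, edgeR adjusted p = 0.00193). EGR1, a zinc finger factor of growth and stress signals, stood at 1162, 1455, 2122 and 2585 with NAP and at 383, 511, 410 and 838 with PIN. The lowest NAP library was above the highest PIN library, and the log2FC was 1.76 ± 0.43 (edgeR adjusted p = 0.0191). FOSB, an AP-1 subunit, had 6909, 5766, 10770 and 10310 counts with NAP and 1879, 2750, 1755 and 2770 with PIN. NAP replicates 3 and 4 were the highest, and the log2FC was 1.88 ± 0.46 (edgeR adjusted p = 0.0186).

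FOS, the founding AP-1 subunit, had 2211, 2202, 3511 and 3267 counts with NAP and 807, 1146, 890 and 1118 with PIN. Every NAP library was above every PIN library, and the log2FC was 1.49 ± 0.34 (edgeR adjusted p = 0.0133). JUN, its dimer partner, had 2957, 2801, 4152 and 4096 counts with NAP and 1051, 1344, 1112 and 1605 with PIN (log2FC 1.45 ± 0.28, adjusted p = 0.00531). EGR2 was a scarce member, at 33.1, 47.6, 118 and 79.2 counts with NAP and 11.4, 13.7, 10.1 and 23.9 with PIN (log2FC 2.14, adjusted p = 0.0236). The other called members were NR4A3 (log2FC 1.43), IER2 (1.22), NR4A1 (0.96), KLF2 (0.95), NR4A2 (0.91), KLF6 (0.89), IER3 (0.86), JUND (0.66) and KLF4 (0.63). EGR3 (1.52, adjusted p = 0.0663) and JUNB (0.78, adjusted p = 0.0628) did not pass. MYC, also an early gene, was the only member with a negative value, -0.36, below the size threshold. With the length offset 14 members were called, with a median of 0.92. Leaving out PIN replicate 1 left 9 calls. EGR1 lost its call without PIN replicate 1 or 2, FOSB without NAP replicate 3 or PIN replicate 1, EGR2 without NAP replicate 3 or 4 or PIN replicate 1 or 2, and NR4A1 whichever of the 8 libraries was left out.

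PIN held the lowest AP-1 message of the 4 exposures for several of these genes. In clean air EGR1 had 684, 577, 2061 and 1440 counts, JUN 2188, 1883, 3870 and 3838, and ATF3 2373, 2276, 3000 and 4230. NAP and clean air overlapped for all 3 genes, whereas the PIN libraries of JUN and ATF3 lay below every clean air library. FOS differed from them, with 601, 534, 1572 and 1141 counts in clean air and a NAP range above it. The highest clean air libraries of EGR1, FOS and JUN came from experiment 42, which also gave NAP replicate 1.

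Some genes of feedback on MAP kinases changed with them. Dual-specificity phosphatases remove phosphate from the kinases that induce them. DUSP8, DUSP1, DUSP10 and DUSP6 rose while SPRED1, a brake on RAS signalling, fell (-0.68). The other 9 of 14 tested members did not pass. Calls made up 35.7% of the list, against 7.48% of all genes, and its median log2FC was 0.17. DUSP1, the immediate early phosphatase of p38 and JNK, had 9359, 8410, 8593 and 10680 counts with NAP and 3620, 4822, 4741 and 4228 with PIN. The ranges did not meet, and the log2FC was 1.09 ± 0.17 (edgeR adjusted p = 0.000737). DUSP10, which prefers the same kinases, had 572, 633, 714 and 739 counts with NAP and 320, 346, 317 and 362 with PIN. Its libraries were tight within each group, and it had 1 of the 5 smallest p among the rises (log2FC 0.98 ± 0.11, edgeR adjusted p = 2.62e-05). With the length offset, 4 members were again higher and 1 lower. HBEGF, a ligand of the EGF receptor, rose (570, 384, 963 and 635 counts against 213, 251, 162 and 275, log2FC 1.48 ± 0.45, adjusted p = 0.0403) but lost its call with the length offset and when any library other than NAP replicate 2 was left out. The receptor EGFR itself was lower, at 650, 569, 411 and 612 counts with NAP and 932, 793, 784 and 936 with PIN (log2FC -0.62 ± 0.14, edgeR adjusted p = 0.00658), a call lost with the length offset and without NAP replicate 3. NRG1, a ligand of ERBB3 and ERBB4, had 977 to 1151 counts with NAP and 1603 to 2066 with PIN (-0.82, edgeR adjusted p = 0.000169). The remaining 8 of 11 tested members of the EGF receptor list did not pass. The share called was 27.3%, against 7.48% of all genes.

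Other signal-induced genes had large changes. GADD45G, a stress sensor that binds MAP3K4, had 339, 211, 645 and 352 counts with NAP and 71.4, 96.5, 67.8 and 101.2 with PIN (log2FC 2.16 ± 0.45, edgeR adjusted p = 0.00812). RGS2, which shuts off Gq signalling, had 440, 309, 754 and 427 counts with NAP and 114, 167, 89.0 and 158 with PIN (1.84, adjusted p = 0.00676). In both, NAP replicate 3 was the highest library and all NAP libraries exceeded all PIN libraries. SNAI1, a repressor of E-cadherin, had a log2FC of 1.91 (adjusted p = 0.0249) with means of 2427 and 642 counts, a call lost without NAP replicate 3, PIN replicate 1 or PIN replicate 4. CDH1, the E-cadherin gene, had a log2FC of 0.27 and did not pass. PPP1R15A, a regulatory subunit of the phosphatase that acts on eIF2α, had 17880, 16050, 15610 and 21300 counts with NAP and 5875, 7959, 6421 and 10290 with PIN (log2FC 1.21 ± 0.23, edgeR adjusted p = 0.00514). It was the only riser among 34 tested genes of the ATF4 response, of which 5.88% were called, against 7.48% of all genes. The arginine transporter SLC7A1 was the only faller (-0.65), and DDIT3 (0.98) and CTH (0.74) did not pass. Falls on this list numbered 4 with the length offset, 7 with library totals alone, 4 without NAP replicate 2, 3 without PIN replicate 1 and 2 without NAP replicate 1 or PIN replicate 4, while rises numbered 2 without NAP replicate 1.

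**Figure D3:**
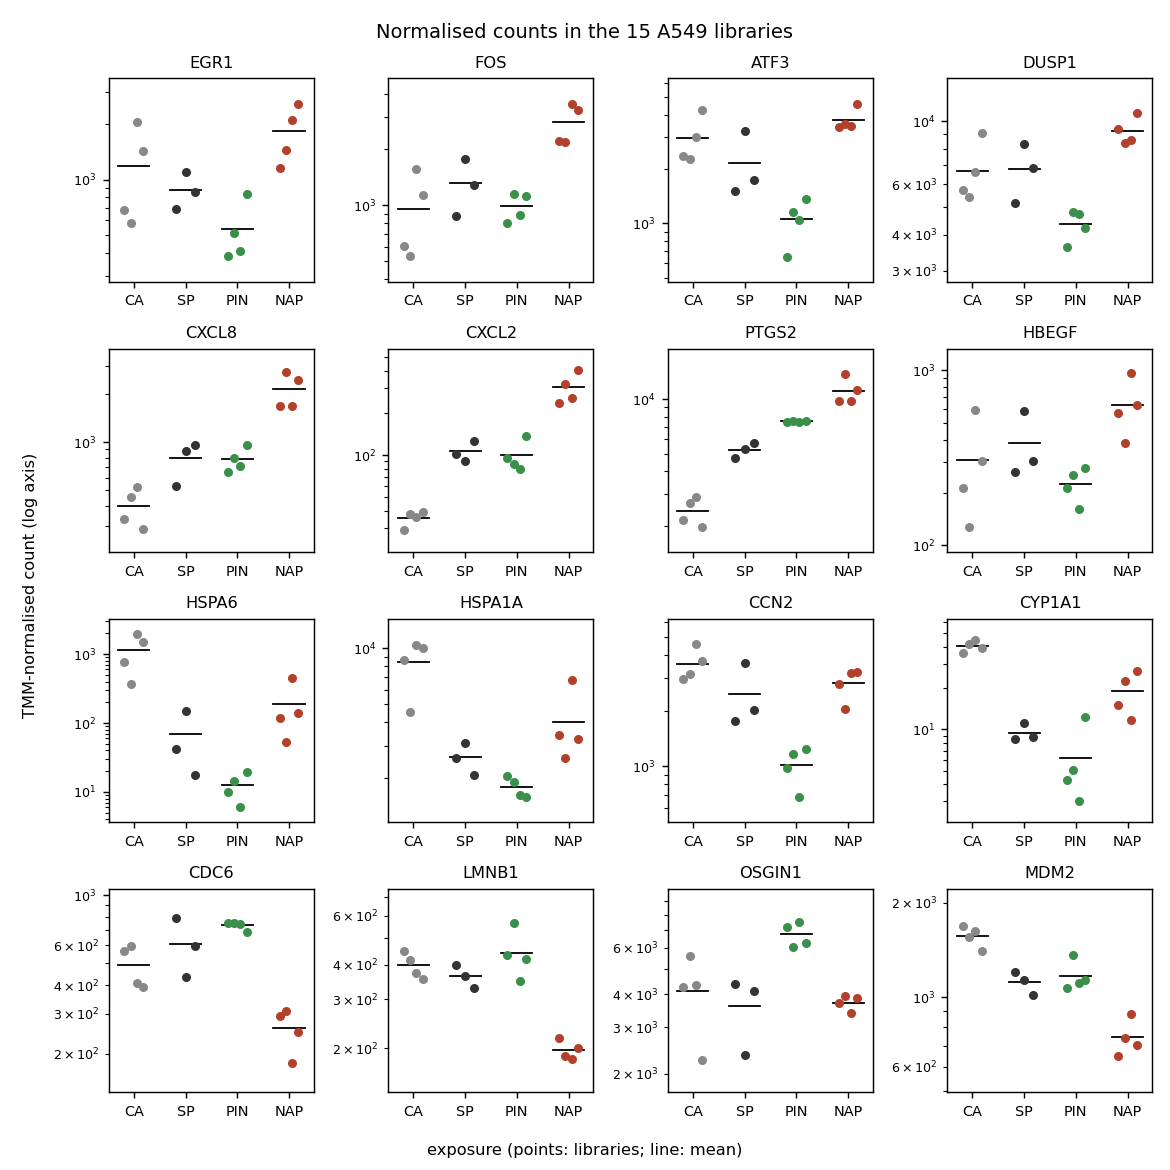
TMM-normalised counts (log axis, differing between panels) of 16 genes in each A549 library, by exposure (CA, SP, PIN, NAP), with a line at the group mean. For EGR1, CXCL2 and CXCL8 the 4 NAP libraries lie above the 4 PIN libraries, for CDC6 they lie below, and HSPA6 has its highest mean, 1148, in clean air.

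Chemokine messages followed another order across the exposures. Neutrophil-attracting CXC chemokines are encoded side by side on chromosome 4 and act through CXCR1 and CXCR2. CXCL2 had 234, 323, 257 and 404 counts with NAP and 95.7, 85.7, 79.9 and 137 with PIN. Every NAP library was above every PIN library, and the log2FC was 1.61 ± 0.18 (edgeR adjusted p = 3.11e-05). CXCL8, also called interleukin 8, had 1676, 2750, 1681 and 2439 counts with NAP and 648, 799, 712 and 960 with PIN. Its log2FC was 1.45 ± 0.24 (edgeR adjusted p = 0.00181). CXCL3 had 283, 305, 265 and 372 counts with NAP and 109, 117, 140 and 135 with PIN (1.29 ± 0.17, adjusted p = 0.0001). CXCL1 rose less, with means of 334 and 187 counts (0.84, adjusted p = 0.0253). PTGS2, the inducible cyclooxygenase of prostaglandin synthesis, had 9751, 13790, 9734 and 11250 counts with NAP and 7480 to 7630 with PIN (0.56 ± 0.12, adjusted p = 0.00382).

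These chemokine messages and PTGS2 were lowest in clean air, where JUN and ATF3 were above PIN. CXCL2 had 29.02 to 39.03 counts in clean air and 90.0 to 127 with soot alone. CXCL8 had 287 to 526 in clean air and 534 to 956 with soot, and PTGS2 1982 to 2885 and 4742 to 5730. For CXCL2 and CXCL8 the soot libraries overlapped those of PIN, and for PTGS2 they lay below PIN. CXCR4, the receptor of CXCL12, had 74.2, 64.6, 188 and 73.5 counts with NAP and 25.7, 40.3, 19.2 and 24.7 with PIN (log2FC 1.81, adjusted p = 0.0212), a call lost without NAP replicate 3, PIN replicate 1 or PIN replicate 4. Of 24 tested genes on the list of chemokines, cytokines and NF-kB genes, 6 were higher and 18 did not pass. The share called was 25%, against 7.48% of all genes, and the median log2FC was 0.20. NFKB2 (0.48), NFKBIA (-0.28), IL11 (0.75) and CCL2 (-0.44) were among the 18. With the length offset 5 members were higher and 1 lower. CXCL1 lost its call with it and without NAP replicate 4, PIN replicate 1 or PIN replicate 2, and PTGS2 without NAP replicate 2 or with library totals alone.

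Promoter sequence is shown for genes on which these results turn, so that the binding motifs named here can be read in place. Each line gives the 200 bases before the start of the gene in RefSeq (GRCh38.p14), 5′ to 3′ on the gene's strand, with motif matches in capitals. EGR1 (chr5:138465279-138465478, plus strand) shows CC, a run of 6 A or T, and GG, the serum response element bound by SRF, 105 and 83 bases before the start. CXCL8 (chr4:73740369-73740568, plus) shows an AP-1 match (TGANTCA) 137 and a match to a loose NF-kB pattern (GGGA, any 4 letters, CC) 117 bases before it. Sites that depart from the letters of a pattern stay in lower case, so the capitals need not mark the sites in use. CXCL2 (chr4:74099196-74099395, minus) shows a pair of overlapping NF-kB matches 78 and 77 bases before. DUSP1 (chr5:172771196-172771395, minus) shows a cAMP response element (TGACGTCA) 125 bases before.
EGR1: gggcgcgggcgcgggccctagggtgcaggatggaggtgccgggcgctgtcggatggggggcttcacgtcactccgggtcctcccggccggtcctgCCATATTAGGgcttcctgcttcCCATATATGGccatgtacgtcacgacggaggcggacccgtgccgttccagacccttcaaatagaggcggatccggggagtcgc
CXCL8: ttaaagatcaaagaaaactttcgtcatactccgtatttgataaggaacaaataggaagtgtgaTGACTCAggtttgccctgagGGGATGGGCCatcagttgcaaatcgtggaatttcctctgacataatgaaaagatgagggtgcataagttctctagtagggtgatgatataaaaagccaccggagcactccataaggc
CXCL2: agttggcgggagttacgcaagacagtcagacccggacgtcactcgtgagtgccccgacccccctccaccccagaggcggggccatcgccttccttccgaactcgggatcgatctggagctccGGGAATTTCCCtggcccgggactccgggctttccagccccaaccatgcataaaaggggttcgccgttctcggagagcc
DUSP1: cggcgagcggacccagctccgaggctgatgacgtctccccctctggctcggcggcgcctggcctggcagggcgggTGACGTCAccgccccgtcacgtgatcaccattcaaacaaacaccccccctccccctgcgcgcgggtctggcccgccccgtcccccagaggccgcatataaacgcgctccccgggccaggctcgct

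Motifs were searched on both strands in windows from 250 bases before to 50 after the start. The search covered 404 promoters of 303 higher genes, 599 promoters of 385 lower genes and 13630 promoters of 9270 tested genes. A gene could have more than 1 promoter, and the shares count promoters. A match is a run of letters and no evidence of binding. The cAMP response element was in 5.2% of promoters of higher genes, 1.5% of lower genes and 2.85% of all. The serum response element was in 2.48%, 0.835% and 1.13%. NF-kB matches were common throughout, in 34.2%, 29.5% and 31.3%. AP-1 sites were in 4.46%, 7.18% and 5.16%, so their share was not raised among the higher genes. The E2F site TTTGGCGC was in 0.495%, 2.5% and 0.976%.

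Heat shock chaperones refold or sort damaged proteins and are induced by HSF1. Of 22 tested members, 10 rose with NAP and 12 did not pass. Calls made up 45.5% of them, against 7.48% of all genes, and the median log2FC was 0.52. HSPA1A, an inducible HSP70, had 3415, 2575, 6794 and 3242 counts with NAP and 2069, 1916, 1620 and 1596 with PIN. Its near-identical neighbour HSPA1B had 2364, 1585, 4590 and 2014 counts against 1259, 963, 894 and 836. NAP replicate 3 was the highest in both, and the log2FC was 1.15 ± 0.31 (edgeR adjusted p = 0.0265) and 1.42 ± 0.36 (adjusted p = 0.021). How reads were divided between these copies is uncertain. DNAJB1, the HSP40 that hands clients to HSP70, had 8591, 7457, 11740 and 8095 counts with NAP and 4414 to 4912 with PIN (0.96 ± 0.17, adjusted p = 0.00267). BAG3 (0.94), HSPH1 (0.65), CHORDC1 (0.63), DNAJA1 (0.57), HSPE1 (0.56), AHSA1 (0.53) and HSP90AB1 (0.52) made up the rest.

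HSPA6, a strictly inducible HSP70 outside that list, had the largest log2FC of the genes named here. It had 117, 52.4, 454 and 140 counts with NAP and 9.99, 14.4, 6.07 and 19.3 with PIN (3.81 ± 1.02, edgeR adjusted p = 0.0263). In clean air it had 783, 365, 1953 and 1492 counts, and all but 1 of these libraries were above every NAP library. HSPA1A likewise had 4569 to 10480 in clean air, so that PIN was the low group and NAP lay between. Against 10 chaperone calls, there were 6 with the length offset, 3 with library totals alone, 2 without NAP replicate 3, 5 without PIN replicate 3, and 6 without PIN replicate 1, 2 or 4. HSPA1A and HSPA6 each lost their call without NAP replicate 3 or PIN replicate 1, 2 or 4, HSPA1B without PIN replicate 2 or 4, and BAG3 whichever library other than NAP replicate 2 was left out. DNAJB1 was called in every setting. HSPA1A (chr6:31815343-31815542, plus strand) carried a heat shock element match (GAANNTTC) 106 bases before its start, and HSPA6 (chr1:161524340-161524539, plus) had matches 180 and 69 bases before. The element was in 6.44% of promoters of higher genes, 5.51% of lower genes and 4.75% of all tested genes.
HSPA1A: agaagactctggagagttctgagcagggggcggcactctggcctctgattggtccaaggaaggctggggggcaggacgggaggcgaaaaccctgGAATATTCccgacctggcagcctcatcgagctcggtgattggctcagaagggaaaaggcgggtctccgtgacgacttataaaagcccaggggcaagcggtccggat
HSPA6: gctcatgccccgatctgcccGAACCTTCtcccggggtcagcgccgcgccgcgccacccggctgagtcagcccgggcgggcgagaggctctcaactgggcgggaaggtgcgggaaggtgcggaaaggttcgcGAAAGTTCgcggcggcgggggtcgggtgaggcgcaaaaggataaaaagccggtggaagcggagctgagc

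Targets of YAP and TEAD, which read cell shape and tension, split. Of 22 tested, 6 rose and 2 fell (36.4% called, against 7.48% of all genes). The median log2FC was -0.06 and became 0.04 with the length offset. CCN2, a matricellular protein, had 2796, 2036, 3202 and 3223 counts with NAP and 984, 1174, 688 and 1249 with PIN (1.46 ± 0.26, edgeR adjusted p = 0.00344). ANKRD1, a nuclear cofactor, had 252, 223, 239 and 300 counts with NAP and 80.0, 91.4, 54.6 and 165 with PIN (1.34 ± 0.34, adjusted p = 0.0182), and 586 to 1148 in clean air. CCN1 (1.18), AMOTL2 (1.10), NUAK2 (0.85) and LATS2 (0.63) also rose, whereas F3 (-0.74) and FJX1 (-0.67) fell. Without PIN replicate 1 or 2, 4 of the rises were left and ANKRD1 lost its call.

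Of 29 tested members of the BMP and TGF-beta pathway, 4 rose and 3 fell (24.1% called, against 7.48% of all genes). The median log2FC of the list was -0.23. The inhibitors of differentiation ID2 (1.53), ID4 (1.08) and ID3 (0.59), which are transcribed in response to BMP signals, and the ligand GDF15 (0.94) rose, while the receptors BMPR1B, BMPR1A (-0.60) and BMPR2 (-0.53) fell. ID2 had 2703, 2412, 4192 and 3004 counts with NAP and 982, 1167, 902 and 1216 with PIN (± 0.23, edgeR adjusted p = 0.00104). GDF15, a stress cytokine, had 14780 to 19340 counts with NAP and 7035 to 10900 with PIN (adjusted p = 0.0128). BMPR1B had 102, 95.2, 67.0 and 81.1 counts with NAP and 276, 198, 214 and 171 with PIN (-1.29 ± 0.18, edgeR adjusted p = 0.000158). The remaining 22 members did not pass. With the length offset, 3 were higher and 1 lower. ID4 was scarce, at 33.1 to 88.2 counts with NAP and 16.6 to 42.8 with PIN. It lost its call without NAP replicate 2 or 3 or PIN replicate 2, 3 or 4.

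**Figure D4:**
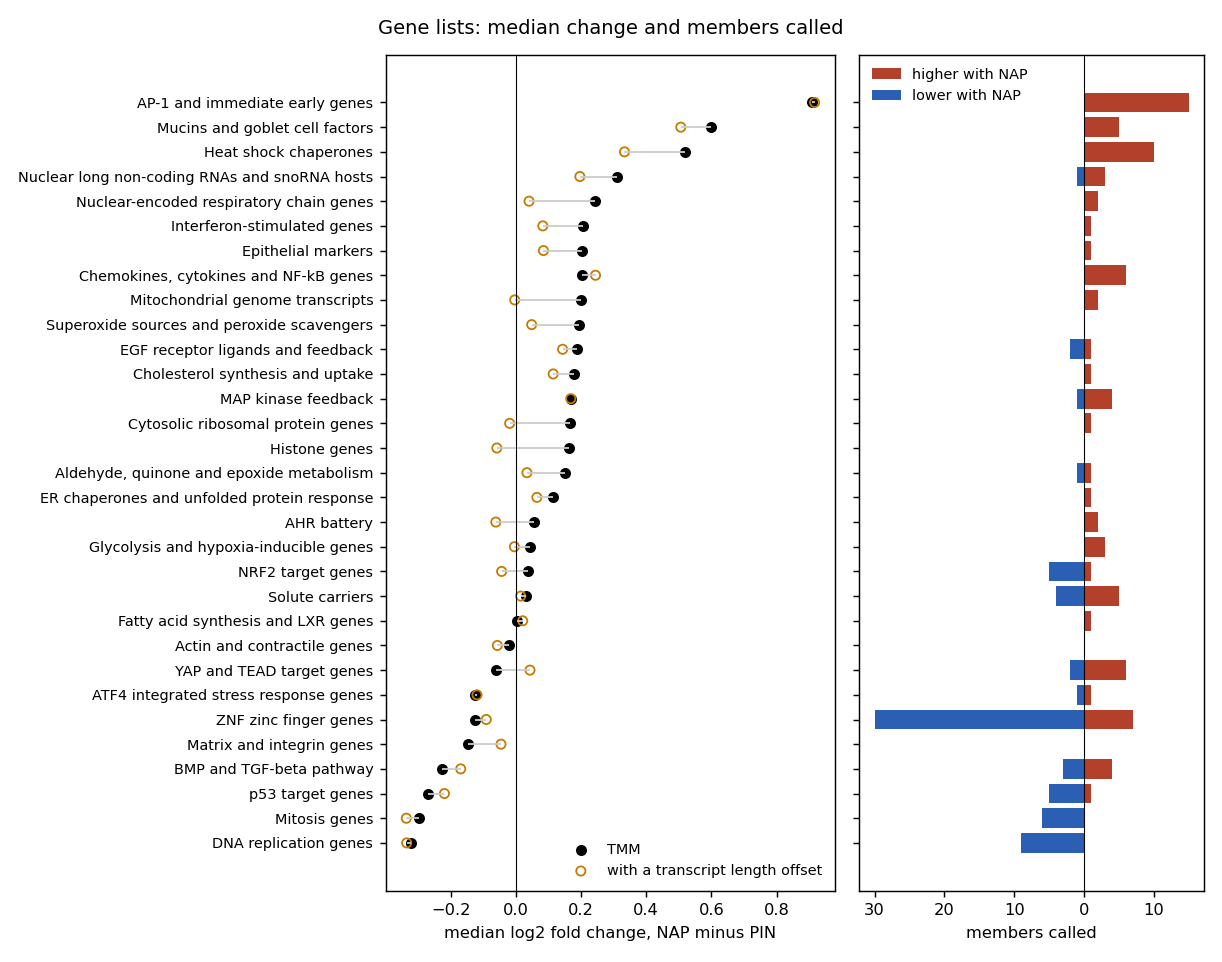
Left, median log2FC (NAP minus PIN) of the main gene lists, with TMM scaling and with the transcript length offset; right, members called higher and lower with NAP. Immediate early genes have the highest median, 0.91, and DNA replication genes the lowest, -0.32.

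NRF2 targets did not move as a group, with a median log2FC of 0.04 over 36 tested members (-0.04 with the length offset, -0.09 with library totals alone). Calls were 1 higher and 5 lower (6 lower with the length offset, 8 with library totals alone). The share called was 16.7%, against 7.48% of all genes. The riser, MAFF, is a small MAF partner of NRF2 that stress also induces, and it had 1545, 1598, 1378 and 1956 counts with NAP and 507, 611, 587 and 801 with PIN (1.36 ± 0.17, edgeR adjusted p = 0.000147). The falls were OSGIN1, CBR3 (-0.71), TRIM16L (-0.62), HMOX1 and GCLC (-0.55). OSGIN1, an oxidative stress growth inhibitor, had 3702, 3931, 3391 and 3875 counts with NAP and 7219, 6017, 7530 and 6248 with PIN (-0.86 ± 0.23, adjusted p = 0.0254). HMOX1, heme oxygenase, had 16190 to 18340 counts with NAP and 17460, 27390, 28320 and 27050 with PIN. The groups overlapped through PIN replicate 1 (log2FC -0.57 ± 0.13, edgeR adjusted p = 0.00606). GCLC makes the first enzyme of glutathione synthesis. Its partner GCLM (-0.46), the thioredoxin reductase TXNRD1 (-0.44) and SRXN1 (-0.49) had an adjusted p under 0.05 and missed the size threshold. NQO1, a quinone reductase, was among the most abundant targets and did not pass, with 21990 to 25640 counts with NAP and 20190 to 22290 with PIN (0.17). Without NAP replicate 3 or 4, 2 of the 5 falls were left, and without PIN replicate 2, 3. OSGIN1 lost its call without NAP replicate 1, 3 or 4 or PIN replicate 1, and CBR3 without NAP replicate 2, 3 or 4 or PIN replicate 2.

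Of 7 tested genes of the AHR battery, 2 rose (28.6% called, against 7.48% of all genes). There was 1 rise without PIN replicate 1, 3 without PIN replicate 4, and 1 rise and 1 fall with library totals alone. CYP1A1, which oxidises polycyclic aromatics, was at the edge of detection. It had 15.0, 22.6, 11.8 and 26.7 counts with NAP and 4.28, 5.04, 3.03 and 12.4 with PIN (1.55 ± 0.36, edgeR adjusted p = 0.0073). PIN replicate 4 lay within the NAP range, and clean air, at 36.02 to 44.44, was above both. AHR itself rose (0.56, adjusted p = 0.00823, lost without PIN replicate 1 and with library totals alone), while CYP1B1 (-0.50), TIPARP (0.33) and ALDH3A1 (0.05) did not pass. None of 16 tested superoxide sources and peroxide scavengers was called by edgeR, although 6 had an unadjusted p under 0.05. Limma-voom called 1 of them higher and DESeq2 none. NOX1, an NADPH oxidase, had a log2FC of 0.88 (adjusted p = 0.0746). GSTA1, a glutathione transferase, rose (1.40, edgeR adjusted p = 0.0245). The call was lost without NAP replicate 2 or 3 or PIN replicate 1 or 2. GSTA1 was scarce, at 21.1, 42.8, 51.7 and 34.4 counts with NAP, 7.92 to 17.8 with PIN and 1.77 to 22.2 in clean air. It met the count filter only through NAP libraries, the group in which it was high, so its call is descriptive.

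Targets of p53, which halts the cycle and repairs or removes damaged cells, were mostly lower among those called. Of 24 tested, 5 fell and 1, GADD45A (0.61), rose (25% called, against 7.48% of all genes). The median log2FC was -0.27. MDM2, the ligase that degrades p53, had 651, 741, 885 and 705 counts with NAP and 1066, 1361, 1108 and 1137 with PIN (-0.65 ± 0.10, edgeR adjusted p = 0.000387). TP53INP1, a cofactor of p53 in stress, had 95.4 to 121 counts with NAP and 194 to 207 with PIN (-0.91, adjusted p = 0.000224). SESN1 (-1.07), ZMAT3 (-0.74) and BTG2 (-0.64) were the others. CDKN1A, the p21 gene of cell cycle arrest, had a log2FC of 0.32 and did not pass. The 5 falls stayed 5 in number with the length offset and 5 or 6 whichever library was left out.

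Replication genes fell in 9 of 37 tested (24.3% called, against 7.48% of all genes), with 28 not called and a median of -0.32. CDC6, which loads the MCM helicase at origins, had 294, 310, 182 and 249 counts with NAP and 752, 754, 743 and 690 with PIN. The highest NAP library lay far under the lowest PIN library, with a log2FC of -1.50 ± 0.19 (edgeR adjusted p = 0.000164). Clean air, at 393 to 594, lay between NAP and PIN, and soot, at 436 to 789, overlapped PIN. GINS1, a helicase subunit, had 151 to 186 counts with NAP and 274 to 397 with PIN (-0.99, adjusted p = 0.00159). MCM10, which helps to fire the helicase, had 132 to 189 and 265 to 322 (-0.84, adjusted p = 0.000241). The origin subunit ORC1 (-0.81), E2F2 (-0.76), GINS4 (-0.60), PRIM1 (-0.58), UHRF1 (-0.55) and MCM4 (-0.54) also fell, and MCM2 (-0.16), PCNA (-0.33) and CCNE1 (-0.15) did not pass. The length offset gave 9 calls again, and 4 were left without NAP replicate 3 or PIN replicate 2.

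Mitotic genes fell in 6 of 24 tested (25% called, against 7.48% of all genes), with a median of -0.30. CCNA2, cyclin A2, had 238, 236, 243 and 199 counts with NAP and 360, 419, 368 and 341 with PIN (-0.70 ± 0.11, edgeR adjusted p = 0.000419). MKI67, a marker of cycling cells, had 519, 391, 309 and 506 counts with NAP and 1082, 816, 596 and 877 with PIN (-0.96 ± 0.25, adjusted p = 0.0212). CENPF (-0.70), KIF23 (-0.57), BUB1B (-0.56) and KIF11 (-0.53) were the others, and CDK1 (-0.06) and CCNB1 (-0.14) did not pass. Only 2 calls were left without NAP replicate 3 or PIN replicate 1, 3 without PIN replicate 2, and 5 with the length offset. MKI67 lost its call without NAP replicate 2 or 3 or PIN replicate 1 or 4. MKI67 was 813 in the clean air library of experiment 42 and 380 in that of experiment 38.

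The most firmly separated falls lay outside these lists. EXTL3, a glycosyltransferase of heparan sulfate synthesis, had 150, 157, 112 and 143 counts with NAP and 371, 309, 344 and 358 with PIN (-1.29 ± 0.14, edgeR adjusted p = 2.62e-05). LMNB1, a nuclear lamina protein, had 218, 187, 183 and 200 counts with NAP and 434, 565, 349 and 419 with PIN (-1.17 ± 0.13, adjusted p = 2.62e-05). BCAT1, which transfers the amino group of branched-chain amino acids, had 74.2, 71.8, 79.9 and 58.2 counts with NAP and 191, 235, 181 and 160 with PIN (-1.44, adjusted p = 5.21e-05). In each of the 3 genes NAP lay below PIN, clean air and soot in every library. C15orf39 (-1.42), ZNF398 (-1.38) and JCAD (-1.36), a junctional protein, had falls of like size. Of 286 tested ZNF zinc finger genes, which encode mostly repressors, 30 fell and 7 rose, 12.9% called against 7.48% of all genes, and with the length offset 26 and 7. Only 4 rises were left without NAP replicate 3 or PIN replicate 2.

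Secretory genes of goblet cells had a positive median, 0.60, over 18 tested members, of which 5 rose (27.8% called, against 7.48% of all genes). BPIFB1, a secreted airway lipid-binding protein, had 125, 172, 207 and 161 counts with NAP and 45.7, 23.0, 59.7 and 68.0 with PIN (1.76 ± 0.48, edgeR adjusted p = 0.025). SLPI, a protease inhibitor of airway mucus, had 611, 900, 1158 and 1006 counts with NAP and 410, 292, 456 and 484 with PIN (1.16, adjusted p = 0.0253). FOXA3 (0.90), VAMP8 (0.59) and FOXA2 (0.58) were the other rises. The gel-forming mucins did not pass, and their libraries overlapped. MUC5AC had 2643, 3955, 4527 and 5808 counts with NAP and 2400, 838, 2504 and 2932 with PIN (0.97, adjusted p = 0.258). MUC5B had 2484 to 6745 and 646 to 3316 (1.13, adjusted p = 0.214). Limma-voom called 10 members and DESeq2 8, whereas the length offset and library totals left 3 each, and 2 were left without NAP replicate 3, PIN replicate 1 or PIN replicate 2. BPIFB1 and SLPI lost their calls without each of these 3 libraries.

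Among transcripts of the mitochondrial genome, counts rose for the ribosomal RNAs MT-RNR1 and MT-RNR2 and for all 4 tested transfer RNAs. None of the 13 tested messenger RNAs was called by edgeR, limma-voom or DESeq2 or had an unadjusted p under 0.05. The libraries were made from poly-A RNA, so these counts do not measure the total level of mitochondrial ribosomal or transfer RNA. MT-TM, the transfer RNA for methionine, had 1442, 1610, 2622 and 2142 counts with NAP and 701, 631, 439 and 471 with PIN (log2FC 1.80 ± 0.34, edgeR adjusted p = 0.00549). The groups did not overlap, and the call held in every setting. MT-TV (1.51), MT-TF (1.45) and MT-TL1 (1.28), which lie beside the ribosomal RNAs, were picked after their values were seen. MT-RNR1 had 385500, 365900, 434400 and 438100 counts with NAP and 189400 to 258500 with PIN (0.84 ± 0.14, edgeR adjusted p = 0.000893), and MT-RNR2 rose by the same log2FC (adjusted p = 0.00654). The median log2FC of the messenger and ribosomal RNAs was 0.20, and -0.00401 with the length offset, with both ribosomal RNAs still called. Of 76 tested nuclear genes of the respiratory chain, 69 had a positive log2FC, the median was 0.24, and 2, NDUFB1 (0.54) and COX7A2 (0.50), were called. Of 82 cytosolic ribosomal protein genes 78 were positive, with a median of 0.17 and RPL39 (0.53) called. The called shares were 2.63% for respiratory genes and 1.22% for ribosomal protein genes, against 7.48% of all genes. Without NAP replicate 3 or PIN replicate 4 no respiratory gene was called, and COX7A2 lost its call in 10 settings, limma-voom among them. With the length offset these medians became 0.04 and -0.02 and no member of either list was called. Among hypoxia-inducible genes ADM, a vasodilator peptide, had 6031, 5702, 5123 and 6867 counts with NAP and 2137, 2687, 2229 and 3176 with PIN (1.21 ± 0.17, edgeR adjusted p = 0.000519), and ANKRD37 (1.52) and CA9 (0.71) rose too. These 3 of 37 tested were 8.11% of the list, near the 7.48% of all genes. There were 2 calls with the length offset and 5 without NAP replicate 3, and CA9 lost its call in 7 settings, among them without NAP replicate 4 or PIN replicate 2 or 4.

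Clean air libraries of the exposure experiments gave a view of the experiments without aerosol, with 1 library each and no test. Experiment 42 gave NAP replicate 1 and a clean air library, and experiment 38 gave PIN replicate 4 and a clean air library. Of the 406 genes higher with NAP, 288 (70.9%) were also higher in clean air of experiment 42 than in clean air of experiment 38, with a median log2 difference of 0.28. Of the 475 lower genes, 221 (46.5%) were higher there, with a median of -0.03, near the 49% and -0.01 of all tested genes. Immediate early genes had a median difference of 0.62 between these clean air libraries, heat shock chaperones 0.31 and chemokines 0.13. Among single genes it was 1.83 for EGR1, 1.55 for FOS and 2.42 for HSPA6, but 0.40 for ATF3, 0.29 for DUSP1, 0.21 for CXCL8 and -0.06 for CXCL2. Once each exposed library was set against clean air of its own experiment, the difference NAP minus PIN had a median of 0.23 over the higher genes, with 278 of 406 positive. Over the lower genes it was -0.63, with 34 of 475 positive. Over all tested genes it was -0.02, with 5709 of 11775 positive. Over lists it was -0.19 for immediate early genes, -0.07 for chemokines, 0.03 for heat shock chaperones, 0.07 for DNA replication and 0.10 for mitosis, so that the medians of the immediate early, chemokine, replication and mitosis lists changed sign against the main comparison. Single genes went both ways. It was 0.93 for ATF3, 0.86 for DUSP1, 0.83 for CXCL2, 0.59 for CXCL8, -0.70 for CDC6, -0.78 for LMNB1 and -0.87 for MDM2, but -1.36 for EGR1, -0.95 for FOSB, -0.57 for FOS, -0.16 for JUN, -1.85 for MKI67 and 0.13 for HSPA6. These values use NAP replicate 1 and PIN replicate 4 of the main comparison and are therefore no separate evidence for it.

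The same contrast in EA.hy926, the cells under the insert, was set against that in A549 by an interaction test over 9900 genes. The difference passed for 178 genes (1.8%), more positive in A549 for 60 (0.606%) and more negative for 118 (1.19%). The count of 178 became 113 without A549 NAP replicate 4, 117 without A549 PIN replicate 1 and 272 without A549 PIN replicate 3. Of the 406 higher genes 261 could be tested and 37 were more positive in A549; of the 475 lower genes 415 could be tested and 89 were more negative. These sets had been called on the A549 values that enter the difference, so the counts are descriptive. ANKRD1 had a log2FC of 1.35 in A549 and -0.55 in EA.hy926, a difference of 1.90 ± 0.38 (edgeR adjusted p = 0.00709). For CCN2 it was 1.81 ± 0.34 (adjusted p = 0.00487), for JUN 1.49, for ATF3 1.31 and for DUSP1 1.01. CDC6 had -1.49 in A549 and 0.10 in EA.hy926, a difference of -1.59 ± 0.21 (edgeR adjusted p = 9.5e-05), and GINS1 and MCM10 differed by -1.03 and -1.01.

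HMOX1 went in opposite directions, with a difference of -2.34 ± 0.54 (edgeR adjusted p = 0.024). The call was lost without A549 NAP replicate 4 (-2.32, adjusted p = 0.0509), EA.hy926 NAP replicate 3 (-1.86, adjusted p = 0.0606) or EA.hy926 PIN replicate 1 (-2.26, adjusted p = 0.0507). In EA.hy926 it had 707, 477, 1606 and 710 counts with NAP and 211, 259, 258 and 291 with PIN (log2FC 1.78, adjusted p = 0.0324), while in A549 its value in the joint fit was -0.56 (adjusted p = 0.279). The NRF2 targets OSGIN1 (-1.55), CBR3 (-1.34), GCLM (-0.90), GCLC (-0.63) and TXNRD1 (-0.55) were also more negative in A549 by the value in brackets. For CXCL3 (-0.20 ± 0.40), CXCL8 (0.24 ± 0.50) and FOS (0.08 ± 0.51) the difference did not pass, and these SEs leave room for differences of either sign. Endothelial RNA in the A549 libraries was at trace level. Library-scaled counts (CPM) summed over 17 endothelial markers were 106 to 126 with NAP, 87.3 to 127 with PIN and 4353 to 5863 in EA.hy926, EGFL7 made up most of the A549 sum, and ERG, ROBO4, EMCN and CLEC14A were at 0 in all NAP and PIN libraries. The epithelial keratins KRT8, KRT18 and KRT7 were abundant but were also present in EA.hy926. KRT7 had 1745 to 2250 CPM with NAP, 1688 to 2532 with PIN and 630.5 to 989.2 in EA.hy926. EPCAM had 22.98 to 32.28 with NAP, 18.52 to 23.16 with PIN and at most 0.5998 in EA.hy926. The 19 epithelial markers summed to 20910 to 23200 with NAP, 20250 to 25980 with PIN and 1851 to 2371 in EA.hy926. Over a list of 9 surfactant and alveolar genes the sum was 147 to 170 with NAP, 183 to 224 with PIN and 268.2 to 397.5 in EA.hy926. It was thus no higher in A549 than in the other line. In A549, ABCA3, LPCAT1 and ETV5 made up most of the sum, while SFTPC, SFTPD, NAPSA, LAMP3, SLC34A2 and HOPX were near 0.

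**Figure D5:**
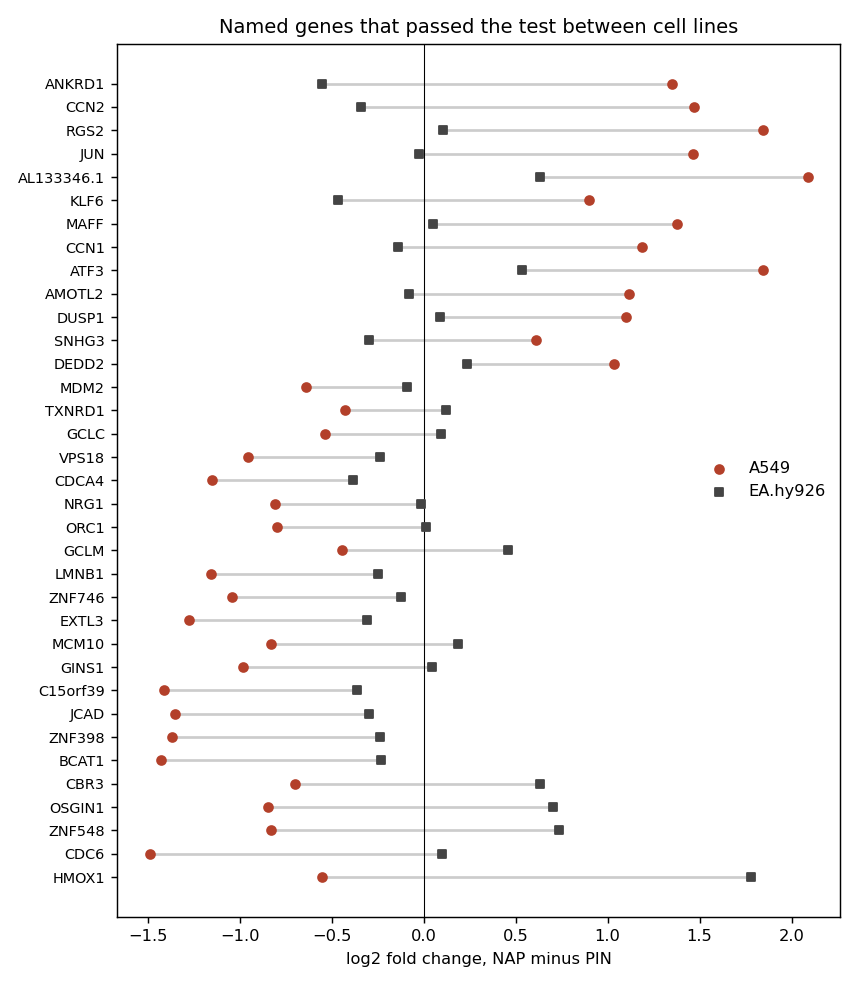
Log2FC (NAP minus PIN) of named genes that passed the interaction test, in A549 (circles) and EA.hy926 (squares), joined by a line. ANKRD1 stands at 1.35 and -0.55, and HMOX1 at -0.56 and 1.78.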

How the data were processed

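Poly-A RNA of A549 and EA.hy926 was sequenced with unique molecular identifiers (30 libraries, 15 of A549). The deposited counts were made by the authors with cutadapt, STAR (2.7.3a per the submitters' processing notes), removal of duplicate molecules and htseq-count on uniquely mapped reads. The study's methods name GRCh38 and the notes GRCm38. The strand setting was not given in the sources used here, so antisense partners cannot be told apart. Counting error and replicate spread both enter the tests, and libraries held 7317041 to 15012539 counts in the groups compared.

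The 15 A549 libraries were fitted together with edgeR 4.0.16 (R 4.3.3), TMM scaling and a robust quasi-likelihood test of NAP minus PIN, and p-values were adjusted by Benjamini-Hochberg over 11775 genes. The standard error is the size of the log2FC over the root of F. Normalised read counts are counts scaled to the mean TMM-adjusted library size. The interaction used all 30 libraries. Genes named were the 12 largest changes each way (libraries apart, mean of at least 50), the 5 smallest p each way, up to 4 called members of each list, genes the study names, defining genes of lists and the 3 largest interactions each way; JUN, IER2, KLF6, NR4A1, GCLC, MYC and members listed in brackets were added after their values were seen. Members and lists were chosen with earlier results of these data known.

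Alternatives were limma-voom (limma 3.58.1), DESeq2 1.42.0, other scalings, filters, a thinned depth, a replicate block and leaving out each library. The fits were tested on simulated data. Replicates carry different experiment numbers, and no experiment held both aerosols. The study's sequencing batch was not named in the sources used here and not used. The labels give the precursor and soot in mg/ml and the methods per cubic metre of air, so no concentration is printed. Deposited tables of normalised values were not used. Promoters came from RefSeq (GRCh38.p14), transcript lengths from GENCODE v44, with 99.9% of tested genes matched.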

Additional observations from a re-analysis of the deposited data

Results flagged for a closer look

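Single libraries stood away from the other 3 of their group in 13 of 321 groups checked, where chance gives about 1 in 20. ATF3 had 4620 normalised read counts in NAP replicate 4 against 3440 to 3538 in the others, and CXCR4 had 188.1 in NAP replicate 3 against 64.55 to 74.2. HMOX1 had 17460 in PIN replicate 1 against 27050 to 28320, and CDC6 had 690.4 in PIN replicate 4 against 743.3 to 753.8. CCNA2 had 199.4 in NAP replicate 4 against 236.4 to 243.3, and ZNF548 had 25.2 in PIN replicate 2 against 12.85 to 14.67. DUSP8 had 297.3 in PIN replicate 4 against 124.2 to 148.7, and SLC7A1 had 1345 there against 962.2 to 1014. GCLM had 3269 in PIN replicate 3 against 3602 to 3650, and SESN1 had 43.49 in NAP replicate 3 against 20.04 to 23.4. In clean air, AHR had 619.8 in replicate 3 against 385.3 to 416.1, GCLC 1743 in replicate 4 against 2709 to 2892, and SESN1 101.2 in replicate 2 against 81.05 to 84.27.

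The difference between NAP and PIN was unequal in A549 and EA.hy926 by the interaction test for 31 of the genes given here. It was more positive in A549 for ANKRD1 (1.902 on the log2 scale), CCN2 (1.807), RGS2 (1.739), JUN (1.487), KLF6 (1.361), CCN1 (1.327), MAFF (1.327), ATF3 (1.306), AMOTL2 (1.196), DUSP1 (1.008) and SNHG3 (0.9088). It was more negative for MDM2 (-0.5495), TXNRD1 (-0.5504), GCLC (-0.6348), NRG1 (-0.7904), ORC1 (-0.8091), GCLM (-0.9044), LMNB1 (-0.9062), ZNF746 (-0.9169), EXTL3 (-0.9684), MCM10 (-1.014), GINS1 (-1.028), C15orf39 (-1.047), JCAD (-1.055), ZNF398 (-1.13), BCAT1 (-1.196), CBR3 (-1.335), OSGIN1 (-1.551), ZNF548 (-1.561), CDC6 (-1.587) and HMOX1 (-2.336). With 1 library left out at a time, the difference lost its call in 6 of 16 fits for RGS2, 8 of 16 for ZNF548 and 3 of 16 for HMOX1, and in none for ANKRD1, CCN2 and CDC6.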

How the results depend on the processing

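With library totals alone, 231 genes were higher and 1051 lower, and the median of all genes moved to -0.12. A filter of 30 CPM left 5771 genes tested and 368 called (181 higher, 187 lower). Leaving out 1 library gave 569 to 1093 calls, 268 to 460 higher and 294 to 640 lower, with 569 (275 and 294) without NAP replicate 3 and 268 and 270 higher without PIN replicates 1 and 2. Limma-voom called 923, DESeq2 939, relative log expression scaling 880, a filter of 1 count 913, the 8 libraries alone 987, thinned counts 811, the length offset 714 and a GC offset 808. No gene changed direction among those called in these settings. The interaction count, 178, was 113 to 272 when 1 library was left out, and 238 with the insert as a random effect. With the replicate number as a block, 908 genes passed, and 242 in the interaction. Same-numbered libraries deviated together with r of 0.01, -0.02, 0.09 and 0.29, so they share only a number, and NAP replicate 1 correlated best with PIN replicate 2 (0.27). Of 109 named genes that were called, 64 held in every setting. Reversals touched values near 0. KRT7 was -0.0232 with totals, -0.0199 with the length offset and -0.0338 with the GC offset. KRT8 was -0.11 with totals, -0.0928 with the length offset, -0.0870 with the GC offset and -0.0516 to 0.0936 with 1 library left out. KCNK1 was -0.10 with totals, -0.0704 with the length offset and -0.0017 to 0.0934 with 1 library left out, and KRT18 -0.0656 to 0.0152. The cause was not tested. At thinned depth, CYP1A1 and EGR2, both scarce, were called as before.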

Other observations

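Several groups outside the main account held few changes. Neither actin and contractile genes (25 tested) nor matrix and integrin genes (24 tested) had a member called by edgeR, limma-voom or DESeq2, although 3 and 7 members had an unadjusted p under 0.05. The length offset called 1 matrix gene higher, and library totals called 2 lower. Of 26 cholesterol genes HMGCS1, the synthase before HMG-CoA reductase, was the single call (0.52 on the log2 scale, edgeR adjusted p = 0.0194, lost without NAP replicate 1 or PIN replicate 3), and of 16 fatty acid and LXR genes it was MLXIPL, a glucose-responsive factor (1.15, adjusted p = 0.00299). CREB3L1, a membrane-bound factor of the endoplasmic reticulum, was the single call of 26 chaperone and unfolded protein genes (1.20, edgeR adjusted p = 0.0156), while HSPA5 (0.34) missed the size threshold. These single calls were 3.85%, 6.25% and 3.85% of their lists, against 7.48% of all genes. Among snoRNA host genes SNHG12 (1.17), SNHG1 (0.95) and SNHG3 (0.60) were higher and SNHG14 (-0.51) lower, of 20 nuclear non-coding RNAs tested. The share called was 20%, against 7.48% of all genes, and SNHG12 lost its call whichever library was left out. Of 202 solute carriers 5 were higher and 4 lower, 4.46% against 7.48% of all genes, with 2 to 9 higher when 1 library was left out (2 without PIN replicate 2, 3 without NAP replicate 3 or PIN replicate 1, 8 and 9 without PIN replicates 3 and 4).

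Between the positions of the clean air mean and the aerosols, 195 of the 406 higher genes had clean air between PIN and NAP, 120 below both and 91 above both. Among the 475 lower genes the counts were 286, 31 and 158.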
